A study of Saccharomyces cerevisiae with 68 samples.

Results

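Newly made RNA of budding yeast lacking Spt20 was compared with that of yeast lacking Gcn5, which sets loss of the SAGA complex as a whole beside loss of its acetyltransferase. The comparison took the nascent arrays titled for each strain, replicates 1 to 4 of spt20 and replicates 1 to 4 of gcn5, so 8 of the 68 arrays in the series and of its 34 nascent arrays. The rule used titles only and no measured value.

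The spt20 strain carried the deletion spt20[delta], the gcn5 strain carried gcn5[delta], and the wild type (WT) served as control; all were derived from the parent strain FY406. Cells came from 100 mL YPD cultures at 30 °C, taken at OD600 0.8, and RNA made during 6 min was labelled with 5 mM 4-thiouracil. Labelled wild-type S. pombe, a fission yeast grown at 31 °C, was added as a spike-in at 3 S. cerevisiae cells to 1 S. pombe cell before RNA was extracted. Labelled RNA was biotinylated and purified from 200 µg of total RNA, and arrays received cRNA made from 150 ng. The labels state 2 independent biological replicates for deletion strains where 4 arrays are present. The labels do not say whether these 4 stem from only 2 cultures, so p-values measure the spread between arrays, which may be technical. In the main fit that spread was pooled over 28 nascent arrays, among them WT and other deletion strains, and not over spt20 and gcn5 alone.

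SAGA is a transcription coactivator that binds promoters with activators. Gcn5, its catalytic subunit, acetylates histone H3 tails as part of a module with Ada2, Ngg1 and Sgf29, and Gcn5 also works in the separate ADA and SLIK complexes. Spt20 is a core subunit needed for the complex to hold together, and with it go the contacts to the TATA-binding protein made through Spt3 and Spt8 and the anchoring of the Ubp8 deubiquitinase. A strain without Spt20 therefore lacks more of SAGA than one without Gcn5.

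Values called relative are log2 signals minus the median of all S. cerevisiae genes on that array, and they show a gene's place within its own array. A difference is spt20 minus gcn5, so that a positive difference is higher in spt20, and a gene was called when its limma adjusted p (Benjamini-Hochberg over 4086 tested genes) was under 0.05. SPT20 had relative signals of -5.27, -8.56, -4.75 and -7.68 in spt20 arrays 1 to 4, against -0.51, -0.19, -0.73 and -0.52 in gcn5 arrays 1 to 4. GCN5 lay between -1.13 and -0.95 in the spt20 arrays, against -7.22 to -4.72 in the gcn5 arrays, so each deleted gene was near the floor of its own strain. GCN5 did not pass the filter on dim genes.

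The arrays within a strain were not equally alike. In spt20 the deviations from the strain mean correlated across genes at 0.57 between arrays 1 and 3 and at 0.35 between arrays 2 and 4, and were negative for the other pairs. In gcn5, array 2 stood apart, with rank correlations of S. pombe signals of 0.95 to 0.96 with the other gcn5 arrays, which had 0.99 among themselves. Both strains lay in the larger of 2 batches of arrays formed by S. pombe profiles, together with WT replicates 3 to 6, so WT 3 to 6 are the reference range below. WT replicates 7 and 8 lay in the smaller batch. WT replicates 1 and 2 were left out because all 1746 of their S. pombe probe sets equal means of other WT arrays. Of their 5498 S. cerevisiae probe sets, 267 did so in new RNA.

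Relative to the S. pombe spike-in, spt20 cells gave less new RNA than gcn5 cells. The array median over the 4086 tested S. cerevisiae genes was taken on the log2 scale above the S. pombe median. It was 0.59, 0.57, 0.94 and 0.60 in spt20 arrays 1 to 4, against 1.24, 1.37, 1.32 and 1.46 in gcn5 arrays 1 to 4. The highest spt20 array lay below the lowest gcn5 array. The mean was 0.68 ± 0.18 in spt20 and 1.35 ± 0.09 in gcn5 (SD, n = 4 each), a difference of -0.67 or 62.7% of the gcn5 level (two-sided exact permutation test, p = 0.0286, the smallest that 4 against 4 arrays can give). WT 3 to 6 ran from 1.18 to 2.07 and overlapped gcn5 but not spt20. In these bulk samples a smaller share of S. cerevisiae cells in the mix and less new RNA per cell cannot be told apart. With the spike-in read from its brightest genes (the top 25%), the difference was -0.99.

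**Figure D1:**
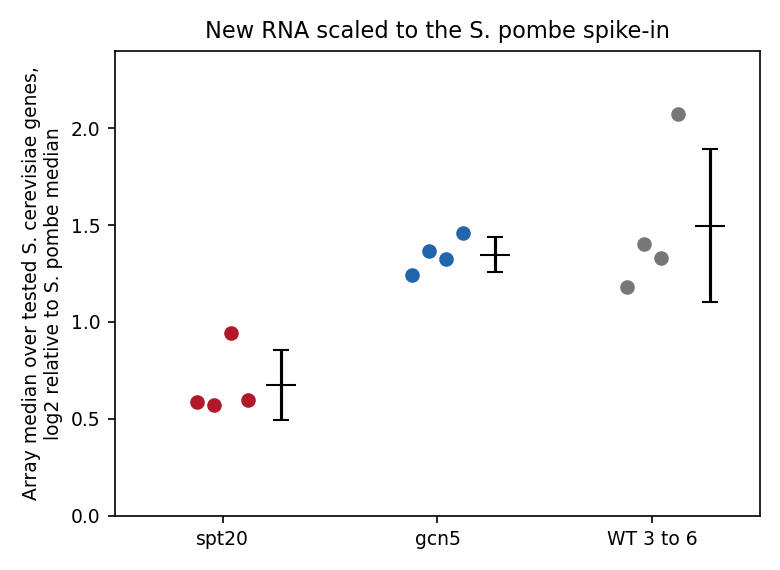
Each point is 1 nascent array, the y axis is its median log2 signal over 4086 S. cerevisiae genes minus its S. pombe median, and the bars give the mean and SD of 4 arrays. The spt20 arrays sit between 0.57 and 0.94, below the gcn5 arrays at 1.24 to 1.46 and the WT 3 to 6 arrays at 1.18 to 2.07.

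On this spike-scaled view limma called 1818 of 4086 genes (44.5%), 40 higher (0.979%) and 1778 lower (43.5%) in spt20 than in gcn5. Relative values are centred on each array's median, which sets a near-balanced split. On them 1154 genes were called (28.2%), 572 higher (14%) and 582 lower (14.2%) in spt20. Without centring of the arrays, where the median of all genes was -0.26, the split was 233 higher and 933 lower. The median size of a call was 0.68 among higher and -0.64 among lower genes, and 122 higher and 113 lower genes differed by over 2-fold. Differences of over 4-fold were seen for 5 higher and 13 lower genes, SPT20 included. In 1618 genes (39.6%) the 4 spt20 arrays did not overlap the 4 gcn5 arrays. Against WT arrays 3 to 8, which span both batches and are shared, 45.5% of genes were called in spt20 and 20.1% in gcn5, and with batch as a block 46.2% and 35%.

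S. pombe genes, read from the wild-type cells of the spike-in, give a background for this test: 63 of 1305 were called (4.83%), beside 28.2% in S. cerevisiae, and their largest difference was 1.37. With the 2 strains fitted alone the shares were 24.8% in S. pombe and 38.9% in S. cerevisiae, and with batch as a block they were 42.5% in S. pombe and 46.6% in S. cerevisiae. Beyond that size lay 40 higher and 58 lower S. cerevisiae genes. The count of calls depended on how the arrays were treated. The main fit pooled arrays of several strains from both batches. Its 1154 relative calls became 1588 with spt20 and gcn5 fitted alone and 1903 with batch as a block. Averaging arrays in pairs, as if each strain had 2 cultures, left 340 calls for consecutive pairs, and 263 with spt20 arrays 1 and 3 and arrays 2 and 4 averaged.

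A block of neighbouring genes at the left end of chromosome XII was higher in spt20 throughout. From the left end of the chromosome to RIC1, in the gene order of the RefSeq R64 table, 75 genes were tested, and 74 of them had a positive difference. Of the 75, 65 were called higher, 1 lower and 9 not called, that is 86.7% higher beside 14% of all tested genes. The exception called lower was TPO1, a polyamine transporter gene, at -0.55 ± 0.11 (SE). The median difference of the block was 1.03, a 2.04-fold higher level, with an interquartile range of 0.79 to 1.32. The other 292 tested genes of chromosome XII had a median difference of 0.03, with 38 higher and 41 lower. The limits of the block were drawn after its values were seen, so it is described here and carries no test.

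The block was equally high in each spt20 array and absent from gcn5. Its median level relative to WT 3 to 6 was 1.14, 1.13, 1.13 and 1.08 in spt20 arrays 1 to 4, against 0.05, 0.03, 0.03 and 0.05 in gcn5 arrays 1 to 4. Medians over 15 neighbouring tested genes ran from 0.83 to 1.39 inside the block, and from -0.84 to 0.49 in the windows of that size elsewhere in the genome that touched none of its genes. The block ended within a few genes: COX12 and RIC1 were called higher at 0.58 and 0.29, and the next tested genes, TRX1 and PDC1, were at 0.51 and 0.15 and not called, with STU2 called lower at -0.50.

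Other strains place the pattern. The block's median in new RNA, relative to WT 3 to 6, was -0.07 to 0.19 in single WT arrays, -0.03 to 0.02 in spt3, -0.04 to 0.00 in spt8, 0.01 to 0.03 in ubp8 and 0.12 to 0.18 in ubp8_gcn5 arrays. It was 0.88 and 0.96 in the spt3_gcn5 arrays, which lack both Spt3 and Gcn5. In total RNA the block's median was 0.09 to 0.12 in the 4 spt7 arrays and 0.93 to 1.02 in the spt3_gcn5 arrays. It was 1.08 and 1.11 in spt20 total RNA arrays 2 and 4, and -0.04 and -0.03 in spt20 total RNA arrays 1 and 3. Those same total RNA arrays 1 and 3 carried SPT20 signal, at -0.70 and -0.55 on the relative scale, against -6.84 and -7.67 in arrays 2 and 4. The libraries labelled spt20 total 1 and 3 thus go against their label in SPT20 and differ from the other spt20 libraries in this block. In the 4 nascent spt20 arrays the block was high and SPT20 was at -4.75 or below, higher in arrays 1 and 3 than in arrays 2 and 4. DNA was not measured, so the number of copies of this block in each strain is not known from these arrays.

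**Figure D2:**
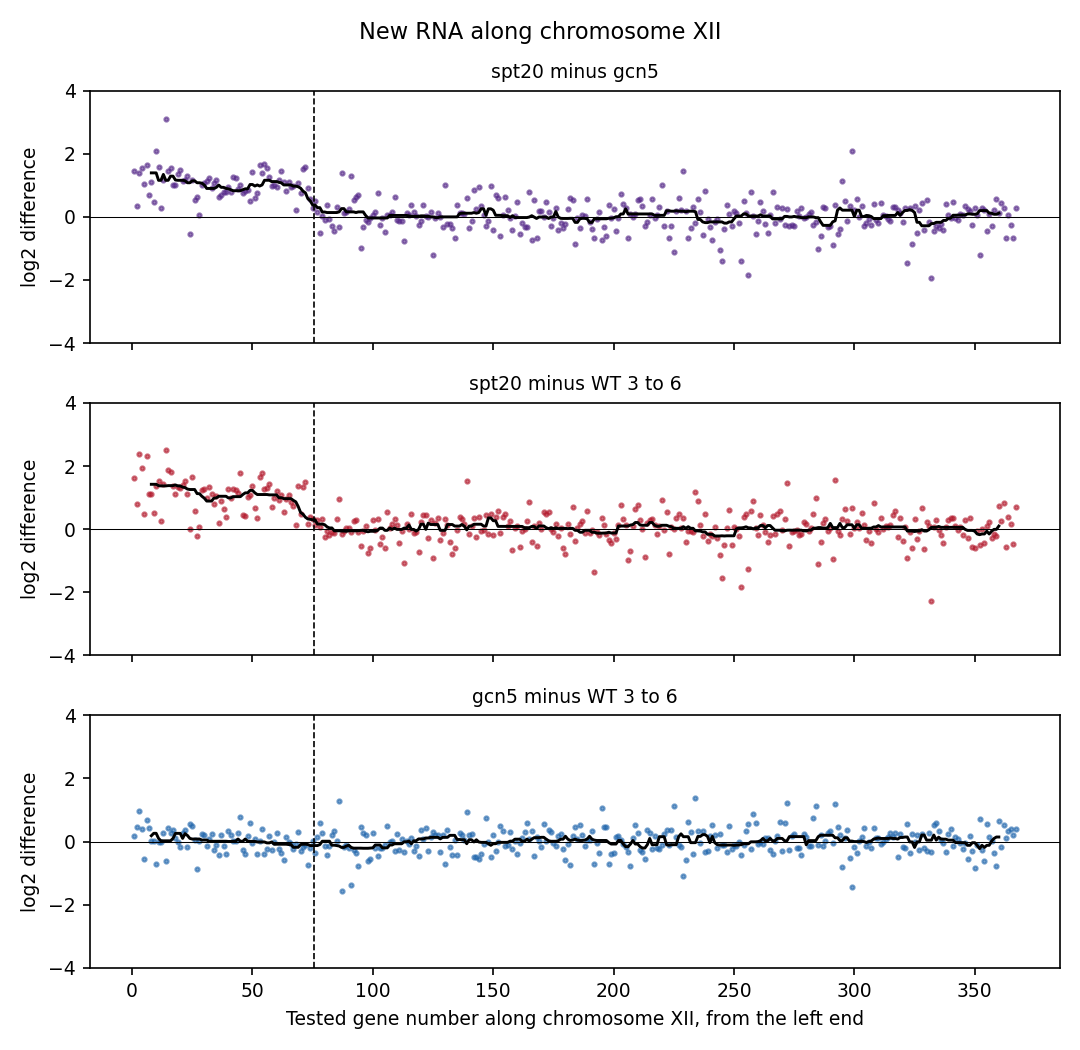
Each point is 1 tested gene of chromosome XII, in order from the left end on the x axis, and the y axis is the log2 difference in new RNA for spt20 minus gcn5 (top), spt20 minus WT 3 to 6 (middle) and gcn5 minus WT 3 to 6 (bottom). The black line is the running median over 15 genes and the dashed line marks the end of the block at RIC1: the 75 genes left of it have a median of 1.03 in the top panel and the 292 right of it 0.03.

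Among the 572 higher calls, 11.4% lay in this block, which holds 1.84% of the tested genes. It holds 5 of the 12 genes with the largest positive differences, ATG10, LDB18, PPR1, TEN1 and YLL056C. Here and below, the 12 in each direction are ranked among called genes whose arrays do not overlap between the strains. Without the block 507 higher and 581 lower calls remain of 4011 tested genes. Of the 40 genes called higher on the spike-scaled view, 16 lay in it. Genes of the block are marked as such in what follows.

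After SPT20 itself, CWP1 had the most negative difference. CWP1, which encodes a mannoprotein of the cell wall, had relative signals of -1.54, -1.63, -1.60 and -2.09 in spt20 arrays 1 to 4, against 1.21, 1.61, 1.71 and 1.44 in gcn5 arrays 1 to 4. The difference was -3.21 ± 0.13 (SE), about 9.26-fold lower (limma adjusted p = 6.9e-15). WT 3 to 6 lay at 1.83 to 2.31, so both strains were below the wild type and spt20 by far the more.

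RGS2, a regulator that turns off G-protein signalling by glucose, moved to opposite sides of WT. Its relative signals were -3.0, -3.0, -2.95 and -2.82 in spt20 arrays, against -0.19, 0.31, -0.41 and -0.02 in gcn5 arrays and -1.35 to -0.75 in WT 3 to 6. The strains differed by -2.86 ± 0.19 (SE; limma adjusted p = 1e-10), with every spt20 array below the WT range and every gcn5 array above it.

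DIP5, the permease for glutamate and aspartate, had -3.25, -2.88, -3.05 and -2.94 in spt20 arrays, against -0.61, 0.17, -0.11 and -0.29 in gcn5 arrays (difference -2.82 ± 0.41 SE, limma adjusted p = 1.3e-05). Its gcn5 arrays overlapped the WT range of -1.61 to -0.43. DDR48, a stress-induced gene, had 0.29, 0.42, 0.56 and 0.55 in spt20 arrays, against 3.15, 2.76, 2.78 and 3.05 in gcn5 arrays, a difference of -2.48. PRY1, which encodes a secreted sterol-binding protein, differed by -2.06 and showed the same picture, with gcn5 arrays at -0.20 to 0.29 inside the WT range and spt20 arrays at -2.32 to -1.50 below it.

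HSP31, a gene for a methylglyoxalase of the DJ-1 family, had 0.15, 0.60, 0.48 and 0.69 in spt20 arrays, against 2.98, 2.71, 2.93 and 2.87 in gcn5 arrays (difference -2.39). The WT range of 1.91 to 2.38 lay between the strains. The uncharacterised gene YER053C-A had the same order, with -1.37 to -0.63 in spt20 arrays, 1.56 to 1.92 in gcn5 arrays and 0.53 to 0.99 in WT 3 to 6. PCL5, the cyclin that directs the kinase Pho85 to the activator Gcn4, had -1.08 to -0.82 in spt20 arrays, against 0.84 to 1.32 in gcn5 arrays, a difference of -2.09.

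The rest of the 12 most negative genes were HXT7, ICY1, MRH1 and YRO2, with differences of -2.10, -2.03, -2.02 and -2.01. HXT7, a high-affinity glucose transporter gene, shares its probes with near-identical genes and cannot be told apart from them. MRH1 and YRO2, which encode related membrane proteins, overlapped WT 3 to 6 in gcn5 and lay below them in spt20. ICY1 had 0.12, -0.69, 0.13 and -1.30 in spt20 arrays, against 1.74, 1.53, 1.59 and 1.52 in gcn5 arrays, so its spt20 level was uneven, with arrays 1 and 3 above arrays 2 and 4. YRO2 showed a like split in spt20, at -1.83 and -1.56 in arrays 1 and 3 and -2.60 and -2.69 in arrays 2 and 4.

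**Figure D3:**
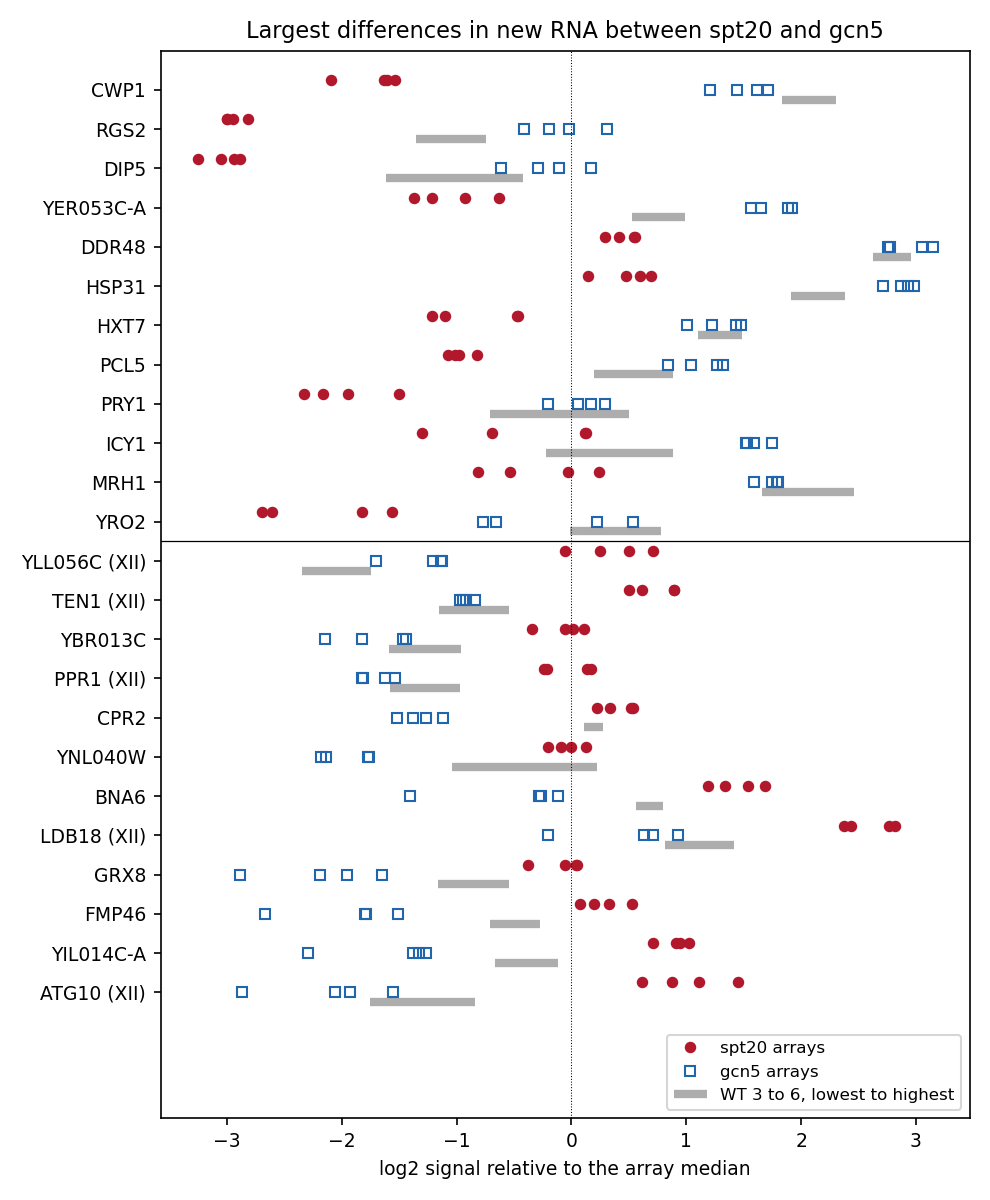
Points are the relative log2 signals of single arrays (x axis) for the 12 genes with the most negative and the 12 with the most positive difference, spt20 arrays as filled circles, gcn5 arrays as open squares and the WT 3 to 6 range as a grey bar; "XII" marks the 5 genes of the chromosome XII block. The 24 were chosen among called genes in which the strains do not overlap, and run from CWP1 at a difference of -3.21 to ATG10 at 3.11.

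ATG10, which encodes the E2-like enzyme that joins the autophagy proteins Atg12 and Atg5, had the largest positive difference and lies in the chromosome XII block. Its relative signals were 1.11, 0.88, 1.45 and 0.61 in spt20 arrays, against -1.55, -2.87, -1.92 and -2.05 in gcn5 arrays. The difference of 3.11 ± 0.28 (SE; limma adjusted p = 1.4e-08) was well above the block's median of 1.03. The other block genes among the 12 were LDB18, a dynactin subunit gene, at 2.08, PPR1, the activator of pyrimidine genes, at 1.66, TEN1, a telomere-capping gene, at 1.65 and YLL056C at 1.64.

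Outside the block, several of the positive differences came with gcn5 arrays below WT. BNA6, which encodes a quinolinate phosphoribosyltransferase of NAD synthesis, had 1.54, 1.34, 1.69 and 1.19 in spt20 arrays, against -0.11, -1.40, -0.26 and -0.29 in gcn5 arrays. WT 3 to 6 at 0.56 to 0.80 lay between the strains, which differed by 1.96 ± 0.24 (SE; limma adjusted p = 1.2e-06). In gcn5 array 2 the value stood apart, and without it the difference was 1.66.

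CPR2, a cyclophilin gene, had 0.33, 0.52, 0.53 and 0.23 in spt20 arrays, against -1.27, -1.52, -1.38 and -1.11 in gcn5 arrays (difference 1.72 ± 0.10 SE, limma adjusted p = 9.7e-12). WT 3 to 6 at 0.11 to 0.27 overlapped spt20, so the gap lay on the side of gcn5. YNL040W showed the same order, at -0.20 to 0.12 in spt20 arrays, against -2.18 to -1.76 in gcn5 arrays and -1.04 to 0.23 in WT 3 to 6.

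YIL014C-A, FMP46 and GRX8, the last a glutaredoxin gene, differed by 2.46, 2.22 and 2.08. In these 3 genes all spt20 arrays lay above the WT range and all gcn5 arrays below it. YBR013C, at a difference of 1.65, was above WT in spt20 and overlapped WT in gcn5.

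Counts of list members below stand against 14% of all tested genes called higher and 14.2% called lower. Averaging consecutive arrays also lowered counts of lists for which this is not said below. It left 2 genes lower in each of the general stress, respiratory chain and G1/S lists, and 1 among phospholipid genes. For glycolysis and histone genes it left 0 higher and 0 lower. Of the 111 genes named from lists, 60 were called with spt20 arrays 1 with 3 and 2 with 4 averaged, 67 with consecutive arrays averaged, and 102 to 108 with any 1 array left out.

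Of the 19 genes for SAGA subunits, 15 passed the filter, and 2 were called higher and 2 lower in spt20, SPT20 among the lower (26.7% called, beside 28.2% of all genes). SGF11, a subunit of the deubiquitinase module, was higher, with 0.30, 0.29, 0.28 and 0.02 in spt20 arrays, against -0.73, -1.05, -1.02 and -0.87 in gcn5 arrays (difference 1.14). ADA2, the partner of Gcn5 in its module, was lower at -0.62, and TAF10, shared with TFIID, was higher at 0.60 with overlapping arrays, a call lost without spt20 array 1 or 3 or gcn5 array 2. The median of the list was 0.10, against 0.03 over all genes. Of 8 tested genes for TFIID-only TAFs and TBP, TAF1 alone was called, at -0.34, and that call was lost in 13 of 24 alternatives, among them the 2 strains fitted alone and leaving out spt20 array 2 or 4 or gcn5 array 2, 3 or 4. With the 2 strains alone or the replicate block 2 other genes of this list were called higher.

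Other acetyltransferase genes went both ways, with 4 higher, 4 lower and 7 not called of 15. RTT109, the histone H3 acetyltransferase for lysine 56, was at -0.13 to -0.02 in spt20 arrays, against -1.43 to -1.19 in gcn5 arrays and -1.41 to -1.20 in WT 3 to 6, but it lies in the chromosome XII block. EAF6, a subunit of NuA4 and NuA3, was higher by 1.30 and lies outside it. SAS3, the catalytic subunit of NuA3, was lower by 0.75 in spt20, and HAT2, a subunit of the Hat1 enzyme, was lower by 0.72 with spt20 below and gcn5 above the WT range.

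Genes for daughter-cell separation moved together. Of 14 tested genes of 15, 13 were called lower in spt20 than in gcn5 and none higher, against 14.2% lower over all genes, and the median difference was -1.19. DSE4, a glucanase that degrades the septum, had -0.70, -0.62, -0.82 and -0.73 in spt20 arrays, against 0.46, 1.21, 0.91 and 0.73 in gcn5 arrays (difference -1.55 ± 0.21 SE, limma adjusted p = 5.5e-06). EGT2 and DSE2, also of the separating wall, differed by -1.35 and -1.38, and CTS1, the chitinase, by -1.41. PIR1, a wall glycoprotein gene, differed least of the 4 with the lowest p, at -0.86, and CHS1, at -0.13, was the gene not called.

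The list's median against WT 3 to 6 was -0.91 in spt20 and 0.18 in gcn5, values that share the WT arrays. With the spt20 arrays averaged in pairs 1 with 3 and 2 with 4, 7 of the 14 were called lower. ASH1, a repressor made in daughter cells, and AMN1, which acts in exit from mitosis, were among the 13, at -1.42 and -1.20.

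Cell wall mannoprotein genes as a wider group were less uniform, with 1 higher, 7 lower and 15 not called of 23. UTR2, a chitin transglycosylase gene, differed by -1.56, with 0.36 to 0.84 in spt20 arrays, against 2.07 to 2.24 in gcn5 arrays. TIP1, another mannoprotein gene, was the one higher, with 3.04, 2.88, 3.15 and 2.94 in spt20 arrays, against 1.85, 1.60, 2.14 and 1.93 in gcn5 arrays. For both genes WT 3 to 6 lay between the strains.

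Of 14 tested genes for amino acid permeases, 10 were called lower in spt20 (14.2% over all genes), 1 higher and 3 not called, with a median of -0.84. With the spt20 arrays averaged in pairs 1 with 3 and 2 with 4, 6 were called lower, and 7 with consecutive arrays averaged. BAP2, a permease for branched-chain amino acids, had -0.09, -0.14, 0.09 and -0.19 in spt20 arrays, against 1.32, 1.73, 1.39 and 1.36 in gcn5 arrays. The difference was -1.53 ± 0.13 (SE; limma adjusted p = 5.2e-09), and the WT range of 0.54 to 0.71 lay between the strains. BAP3 differed by -1.49 in the same order.

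TAT1, for tyrosine and tryptophan among others, had -1.28, -2.24, -1.24 and -2.26 in spt20 arrays, against 0.13, 0.27, 0.00 and 0.16 in gcn5 arrays, again with spt20 arrays 1 and 3 above 2 and 4. The 1 higher member, MMP1, for S-methylmethionine, was at 1.54 and lies in the chromosome XII block. CAN1, the arginine permease, was at -0.05 and was not called.

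Of 16 hexose transporter genes on the array 5 passed the filter, and 4 were called lower (14.2% over all genes). With arrays averaged by either pairing 2 of the 5 were called, and HXT3 and HXT4 were not. HXT1, the low-affinity transporter, had -1.14, -1.49, -1.55 and -1.71 in spt20 arrays, against 0.26, -0.37, -0.33 and 0.36 in gcn5 arrays (difference -1.45). HXT3 and HXT4 differed by -1.44 and -1.48, and HXT2, at 0.46, was not called. In the 4 lower genes gcn5 overlapped WT 3 to 6 and spt20 lay below.

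Drug efflux and related genes of multidrug resistance had 9 lower, 0 higher and 6 not called of 15, where 14.2% of all genes were lower, with a median of -0.73. SNQ2, an ABC transporter, had 0.38, 1.17, 0.69 and 1.36 in spt20 arrays, against 2.51, 2.52, 2.58 and 2.61 in gcn5 arrays. PDR16, a phosphatidylinositol transfer protein under the same activators, had 0.69 to 1.20 in spt20 arrays, against 2.29 to 2.45 in gcn5 arrays, above the WT range of 1.03 to 1.52. PDR5, the main efflux pump, differed by -0.76 and TPO4, a polyamine transporter, by -1.94. With spt20 arrays averaged in pairs 1 with 3 and 2 with 4, 3 of the 15 were called lower.

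**Figure D4:**
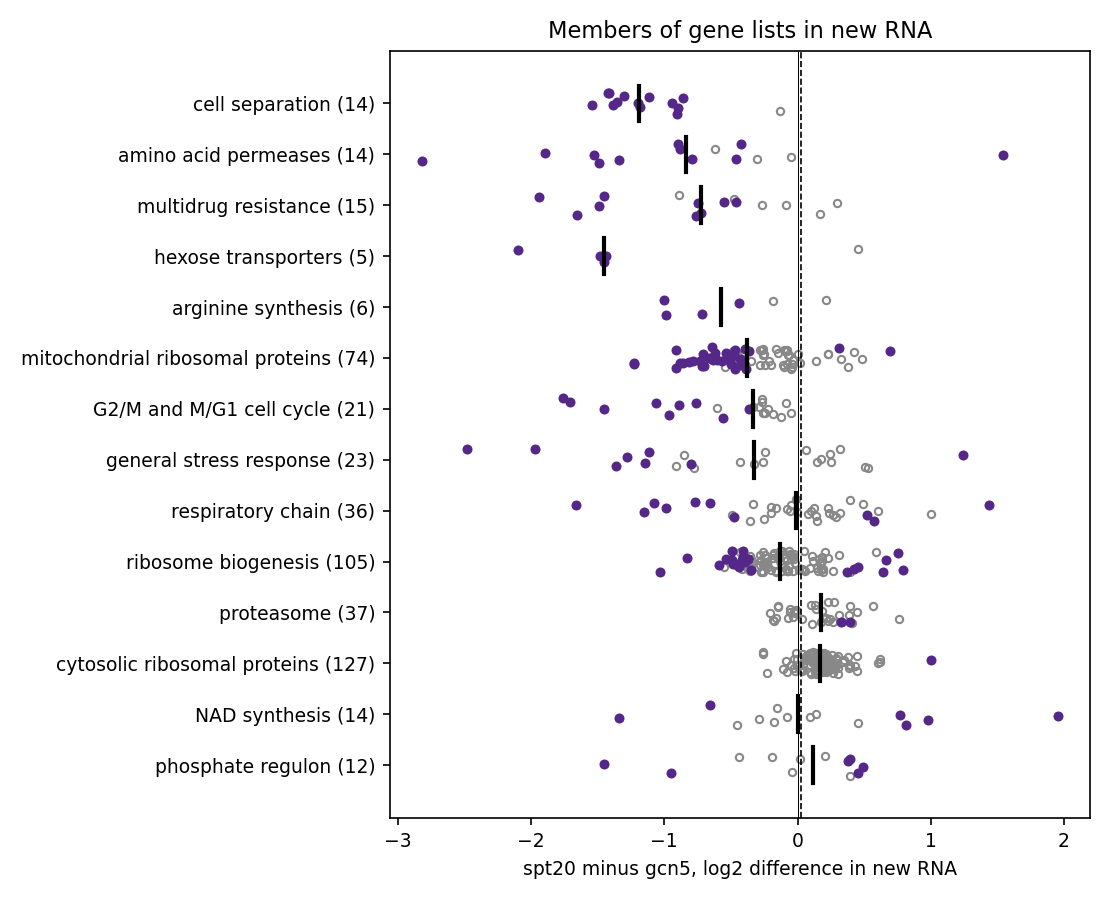
Each point is 1 tested member of a gene list (number tested in brackets), the x axis is its spt20 minus gcn5 difference in new RNA, filled where called, black bars are list medians and the dashed line is the median of all genes at 0.03. Genes of cell separation have a median of -1.19 and amino acid permeases of -0.84, while cytosolic ribosomal proteins sit in a narrow band around 0.17.

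Of 6 tested arginine synthesis genes 4 were called lower in spt20 than in gcn5 (14.2% over all genes), ARG1, CPA1, ARG8 and ARG4. The list's median against WT 3 to 6 was 0.70 in spt20 and 0.94 in gcn5, with the WT arrays shared. ARG1, argininosuccinate synthetase, had 0.31, 0.54, 0.22 and 0.64 in spt20 arrays, against 1.73, 0.99, 1.29 and 1.65 in gcn5 arrays and -2.08 to -1.35 in WT 3 to 6. The difference was -0.99 ± 0.17 (SE; limma adjusted p = 8.6e-05). CPA1 differed by -1.0, ARG8 by -0.71 and ARG4 by -0.44. The call of ARG4 was lost in 11 of 25 alternatives, among them leaving out spt20 array 1, 2 or 3 or gcn5 array 1 or 4. ARG2 and ARG7, at 0.22 and -0.18, were not called.

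Other amino acid synthesis genes under Gcn4 had 5 higher, 10 lower and 28 not called of 43, with a median of 0.05. HIS4, of histidine synthesis, had 0.16 to 0.34 in spt20 arrays, against 1.43 to 2.02 in gcn5 arrays, a difference of -1.51. LEU1 and SER3, of leucine and serine synthesis, were higher by 1.05 and 1.25. Sulphate and methionine genes also went both ways, 4 higher, 5 lower and 9 not called of 18. MUP1, a methionine permease, was lower at -0.90, while MHT1, at 1.39, lies in the chromosome XII block, which holds 2 of the 4 higher genes.

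The list of phosphate genes had medians of -1.0 in spt20 and -1.13 in gcn5 against WT 3 to 6, with the WT arrays shared. PHO84, the high-affinity phosphate transporter, had -1.50, -2.90, -1.60 and -2.90 in spt20 arrays, against -1.21, -1.61, -1.17 and -1.11 in gcn5 arrays and 1.89 to 2.31 in WT 3 to 6. Its difference of -0.95 was called (limma adjusted p = 0.026), though the arrays overlapped, and spt20 arrays 1 and 3 were again above 2 and 4. The difference was -1.63 without spt20 arrays 1 and 3 and -0.28 without arrays 2 and 4, and the call was lost in 12 of 25 alternatives, among them quantile normalization and leaving out spt20 array 2 or 4 or gcn5 array 1, 3 or 4. PHO3, a constitutive acid phosphatase, was lower in spt20 at -1.45. VTC4 and PHO86 were higher in spt20, at 0.45 and 0.39, so that 4 genes were higher, 2 lower and 6 not called of 12. The call of VTC4 was lost in 8 of 25 alternatives, among them leaving out gcn5 array 2. That of PHO86 was lost in 6 of 25, and both were lost with quantile normalization. With arrays averaged by either pairing 0 of the 12 were higher and 1 was lower.

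Genes of NAD synthesis split. BNA6, BNA7, NPT1 and BNA4 were higher in spt20 by 1.96, 0.98, 0.82 and 0.77, and PNC1, the nicotinamidase, and BNA5 were lower by 1.34 and 0.66. NPT1, nicotinate phosphoribosyltransferase, had 0.98 to 1.11 in spt20 arrays, against 0.18 to 0.34 in gcn5 arrays and 0.94 to 1.43 in WT 3 to 6, so spt20 overlapped WT and gcn5 lay below. In PNC1 spt20 overlapped WT 3 to 6 and gcn5 lay above.

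In the mating list of 16 tested genes, 2 were higher and 5 lower. With arrays averaged by either pairing 0 were higher and 0 lower. The 2 genes for a-factor went opposite ways: MFA1 had 0.62, 0.74, 0.70 and 0.40 in spt20 arrays, against -0.06, -0.81, -0.24 and -0.26 in gcn5 arrays, while MFA2 had 1.58, 0.90, 1.35 and 0.64 in spt20 arrays, against 2.87, 2.30, 2.62 and 2.55 in gcn5 arrays. MFA1 was below WT 3 to 6 in both strains, and MFA2 was below them in spt20 and overlapped them in gcn5. The differences were 0.96 and -1.47. STE4 and STE6, for the G-protein beta subunit and the a-factor exporter, were lower at -0.55 and -0.77.

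Cell-cycle genes of G2/M and M/G1 had 9 lower, 0 higher and 12 not called of 21, where 14.2% of all genes were lower, with a median of -0.33. With the spt20 arrays averaged in pairs 1 with 3 and 2 with 4, 4 were called lower, and 5 with consecutive arrays averaged. RME1, a repressor of meiosis that also activates the G1 cyclin CLN2, had -1.49, -1.74, -1.48 and -1.41 in spt20 arrays, against 0.09, 0.23, 0.29 and 0.11 in gcn5 arrays (difference -1.71). The cyclins CLB1 and CLN3 differed by -1.76 and -1.06, and 4 of the 6 tested MCM helicase genes were called lower. G1/S genes had 3 higher, 7 lower and 15 not called of 25, with CLB6, CLN2, NRM1 and RNR1 lower by 1.19, 0.84, 1.07 and 0.86. The call of RNR1 was lost without spt20 array 2 or gcn5 array 2. Of 10 tested histone genes HHO1 was lower and CSE4 higher, by 0.48 and 0.51, CSE4 not without spt20 array 3.

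Mitochondrial ribosomal protein genes had 35 lower, 2 higher and 37 not called of 74, where 14.2% of all genes were lower and 14% higher, and their median was -0.38. MRPS35 had -1.77, -1.90, -1.78 and -1.29 in spt20 arrays, against -0.49, -0.20, -0.50 and -0.64 in gcn5 arrays, and MRPS9 differed by -0.88. Averaging spt20 arrays 1 with 3 and 2 with 4 gave 10 called lower. Respiratory chain genes had 3 higher, 7 lower and 26 not called of 36, with CYC1, CYT1 and RIP1, genes for cytochrome c, cytochrome c1 and the Rieske protein, lower by 1.67, 1.15 and 0.98. SDH2, at 1.44, lies in the chromosome XII block, which holds 2 of the 3 higher genes. HAP4, the activator of respiratory genes, had -0.89 to -0.57 in spt20 arrays, against 0.67 to 1.19 in gcn5 arrays and 0.21 to 0.51 in WT 3 to 6.

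Cytosolic ribosomal protein genes stood out for how few were called: 1 higher, 0 lower and 126 not called of 127, with a median of 0.17. That median was -0.05 without gcn5 array 2, 0.01 without spt20 arrays 1 and 3, and 0.33 without spt20 arrays 2 and 4. In total RNA without the libraries labelled spt20 total 1 and 3 it was -0.38. Its direction thus depended on the arrays used and on the kind of RNA. The 1 called gene, RPS14B, had 2.83, 2.60, 2.94 and 2.60 in spt20 arrays, against 2.07, 0.97, 1.97 and 1.96 in gcn5 arrays, with gcn5 array 2 the lowest. Without gcn5 array 2 its difference was 0.74 and was not called, and 2 other genes of the list were called lower. On the spike-scaled view their median was -0.50, beside -0.65 over all genes. Ribosome biogenesis genes had 7 higher, 16 lower (15.2%, beside 14.2% over all genes) and 82 not called of 105, with CIC1 at -1.03, and 3 of the 7 higher genes lie in the chromosome XII block. The lower count was 1 with arrays averaged by either pairing and 3 without spt20 arrays 1 and 3. Proteasome genes had 2 higher and 35 not called of 37.

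Stress genes varied. The general stress list had 1 higher, 7 lower and 15 not called of 23, with DDR48 at -2.48, the trehalose synthesis genes TSL1 and TPS2 at -1.97 and -1.36, and SPG5 higher at 1.24. HSP12 and HSP26, standard markers of this response, were at -0.85 and 0.51 and not called. Heat-shock chaperone genes had 3 higher, 4 lower and 20 not called of 27. Glycolysis and fermentation genes had 0 higher, 3 lower and 19 not called of 22. GLK1, glucokinase, was at -0.01 to 0.51 in spt20 arrays, against 1.89 to 2.47 in gcn5 arrays. The lower genes TDH1 and ENO1 differed by -0.82 and -0.80, and the call of ENO1 was lost without spt20 array 3 or gcn5 array 3 or 4.

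Among glucose-repressed genes MDH2, cytosolic malate dehydrogenase, had -0.99, -0.91, -0.87 and -0.72 in spt20 arrays, against 0.60, 1.57, 0.90 and 0.74 in gcn5 arrays, a difference of -1.82. That list had 2 higher, 3 lower and 3 not called of 8. Iron genes had 4 higher, 4 lower and 12 not called of 20. FET3 and FTR1, the paired iron oxidase and permease, were lower by 1.34 and 0.71, and FRE6 and SMF3, at 1.09 and 1.5, lie in the chromosome XII block.

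Lipid genes also split. Ergosterol genes had 5 higher, 4 lower and 17 not called of 26, with ERG9, squalene synthase, at 1.05 to 1.54 in spt20 arrays, against -0.08 to 0.14 in gcn5 arrays, and ERG5 lower by 0.91. Phospholipid genes under Ino2 and Ino4 had 1 higher, 5 lower and 10 not called of 16, FAS1 lower by 0.73. Thiamine and vitamin B6 genes had 4 higher, 2 lower and 8 not called of 14, where THI13 and SNO3 share probes with near-identical genes. Pyrimidine genes had 2 higher, 2 lower and 11 not called of 15, with URA8 higher by 1.31 and URA1 lower by 1.25. The other higher gene, PPR1, lies in the chromosome XII block. Of 28 Mediator and RNA polymerase II genes 3 were higher and 1, RPB3 at -0.46, lower. Genes used elsewhere as model SAGA promoters had 2 higher, 7 lower and 15 not called of 24, with BDF2 at -1.58. DNA damage genes had 1 higher, 2 lower and 9 not called of 12, and the largest positive difference of that list, 2.04, was not called. The only tested alpha-specific gene was not called.

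Arrays of total RNA were available for the same strains. With all of them, 690 of 4086 genes were called in total RNA (16.9%), and 1168 (28.6%) without the libraries labelled spt20 total 1 and 3. Across 4016 genes tested in both kinds of RNA, the differences correlated at Pearson 0.81 and Spearman 0.69 without those libraries, and at 0.76 and 0.66 with them. The points are genes and not independent replicates, and the 2 kinds of RNA may come from the same cultures. Without those libraries, 97.0% of the genes called lower in new RNA were lower in total RNA as well, where 54.5% of all genes were, and 97.7% of those called higher were higher.

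CWP1 differed by -3.76 in total RNA without those libraries and -3.21 in new RNA, BAP2 by -1.32 and -1.53, and DSE2 by -0.45 and -1.38. The median of the cell separation list was -0.83 in total RNA, beside -1.19 in new RNA.

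**Figure D5:**
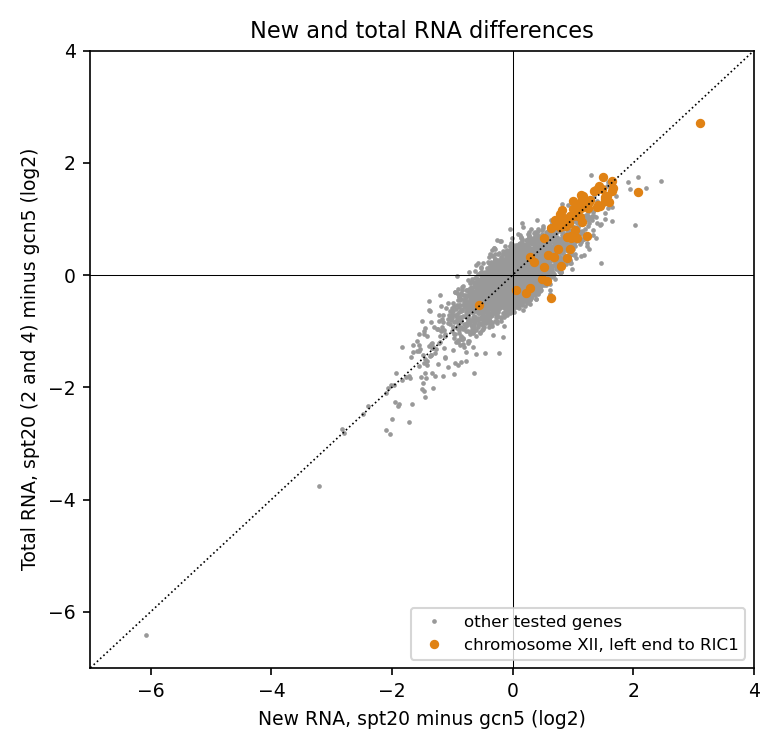
Each point is 1 of 4016 genes, the x axis is the spt20 minus gcn5 difference in new RNA and the y axis the same difference in total RNA with spt20 arrays 2 and 4; the dotted line marks equal differences. The 2 measures correlate at 0.81 (Pearson), SPT20 is the lowest point, and genes of the chromosome XII block, in orange, lie mainly near 1 on both axes.

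The strains of the other modules, set against WT 3 to 6 and sharing no array with spt20 or gcn5, were compared gene by gene. Across 4086 genes the spt20 minus gcn5 difference correlated with spt3 minus WT at -0.08 (Pearson) and -0.16 (Spearman), with spt8 minus WT at -0.29 and -0.35, and with ubp8 minus WT at 0.02 and 0.04. Leaving out gcn5 array 2 gave -0.14 and -0.18 for spt8, 0.04 and -0.03 for spt3, and -0.02 and -0.01 for ubp8. The Pearson value of spt3 and both values of ubp8 changed sign. Of genes called lower in spt20, 49.3% were below WT in spt3, 37.3% in spt8 and 48.1% in ubp8, where 52.3%, 55.4% and 48.9% of all tested genes were. Of genes called higher in spt20, 46.2% were above WT in spt3, 34.8% in spt8 and 54.9% in ubp8. The background for these is the share of all tested genes not below WT, the remainder of the shares just given. The median over the higher genes was -0.04 in spt3, -0.15 in spt8 and 0.02 in ubp8. Over all tested genes it was -0.02, -0.06 and 0.01. Spt3 and Spt8 are the subunits that contact the TATA-binding protein, and Ubp8 is the deubiquitinase. Only 2 arrays each were used for spt3 and spt8.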

How the data were processed

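The authors deposited linear intensity values for 68 arrays and 10928 probe sets. The submitters' processing notes name Affymetrix Expression Console 1.4.1 and no algorithm. Probe annotation paired 7244 probe sets with 1 gene, 1 with several and 3683 with none, and 12 symbols were updated. The brightest probe set stood for each of 47 genes that had several. Genes in the dimmest 25% (mean log2 signal) were dropped, which kept 4086 S. cerevisiae and 1305 S. pombe genes. Relative and spike-scaled values were computed here.

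Genes were tested with lmFit and eBayes of limma 3.58.1 (R 4.3.3), over 28 nascent arrays or 32 total RNA arrays, and p-values were adjusted after Benjamini and Hochberg (threshold 0.05). WT replicates 1 and 2 were left out, as means of other arrays in total RNA and in the S. pombe values of new RNA. The spt7 nascent arrays were also left out (S. cerevisiae values not in the order of genes: rank correlation with total RNA 0.02). The ubp8_gcn5 arrays, which carry other scaling, were kept in and left out. Exact tests used scipy 1.17.1 and figures matplotlib 3.10.9 (Python 3.11.15). Signals hold no background value, and the number of arrays limits the precision.

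Named genes are SPT20, GCN5, the 12 largest called differences each way whose arrays do not overlap, and up to 4 members of each of 35 lists with the lowest p; TPO1, COX12, RIC1, TRX1, PDC1, STU2, CHS1, CTS1, ASH1, AMN1, CAN1, HXT2, ARG2, ARG7, CLB1, BNA4, BNA5, TSL1, TPS2, HSP12 and HSP26 were named after their values were seen. The comparison, members and lists were chosen with earlier results of these data known. The test was tried on data simulated with independent noise in each array, without pairs or batches of arrays. It recovered 37.9%, 84.3% and 98.6% of genes changed by 0.5, 1 and 2 in log2, with 10 false calls of 162. It cannot show how calls fare where arrays are paired or in batches. Promoter motifs were not analysed here.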

Additional observations from a re-analysis of the deposited data

Results flagged for a closer look

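In 17 of 272 groups of 4 arrays (6.25%) 1 array lay apart from the other 3, with its gap divided by the group's range above Dixon's 95% critical value, and chance gives about 1 in 20. In spt20 this held for the spike-scaled median (array 3, 0.93), SGF11 (0.94), MHT1 (0.921) and URA1 (0.836). In gcn5 it held for FAS1 (0.958), ENO1 (0.944), STE6 (0.924), MHT1 (0.919), RPS14B (0.902), OPI1 (0.901), YIL014C-A (0.889), THI13 (0.882), URA1 (0.871), BNA6 (0.867), SRB2 (0.867), YLL056C (0.855) and PDR5 (0.834). Among the genes, gcn5 array 2 was the array apart in 11 and gcn5 array 3 in 2.

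In 19 named genes every spt20 array lay on one side of the WT 3 to 6 range and every gcn5 array on the other. Against WT 3 to 8 both strains were called, in opposite directions, in 7 of the 19, and in 17 with batch as a block, the exceptions being RPS14B and MRPS35; the values below are spt20 minus gcn5. With spt20 below WT and gcn5 above, these were RGS2 (-2.86), YER053C-A (-2.79), HSP31 (-2.39), SNQ2 (-1.66), HAP4 (-1.59), UTR2 (-1.56), BAP2 (-1.53), HIS4 (-1.51), BAP3 (-1.49), ALD4 (-1.24), MRPS35 (-1.23) and HAT2 (-0.72). With spt20 above WT and gcn5 below, they were YIL014C-A (2.46), FMP46 (2.22), GRX8 (2.08), BNA6 (1.96), TIP1 (1.12), RPS14B (1.00) and, in the chromosome XII block, DRS1 (0.79).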

How the results depend on the processing

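None of the 24 named genes with the largest differences changed direction under any setting run, but most settings could not have changed it. The 24 were chosen for arrays that do not overlap, so leaving out arrays could not turn their direction. Averaging, blocks and fits on fewer strains left every gene's difference as it was. Only settings that change the signals, such as quantile normalization or no centring, could turn it. All 24 were called under each setting except where arrays were averaged, with 20 of 24 called for either pairing, and with the dimmer 50% of genes left out, where 11 were tested and called. Of the 111 genes named from lists none changed direction, and 44 lost their call with consecutive replicates averaged, 51 with the other spt20 pairs averaged, 28 and 35 with these pairings as random blocks, 19 without spt20 arrays 1 and 3, and 3 to 9 with 1 array left out. The count of 1154 relative calls of 4086 genes became 1832 with the larger batch alone, 1903 with batch as a block and 677 without spt20 arrays 1 and 3. It was 717 of 2724 tested genes with the dimmer 50% left out, and 1493 of 5449 with no filter on dim genes. With consecutive replicates averaged it was 340 and as a random block 463; with the pairs of spt20 arrays 1 with 3 and 2 with 4, chosen after seeing the data, it was 263 averaged and 384 as a random block. Leaving out 1 array gave 901 to 1117.

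The 1818 spike-scaled calls became 3106 with the 2 strains alone, 2763 with the larger batch, 2862 with batch as a block, 79 with consecutive replicates averaged, 192 with them as a random block, 80 with the other spt20 pairs averaged and 521 without spt20 arrays 2 and 4. Leaving out 1 array gave 1145 (gcn5 array 4) to 2083, with 1166 without spt20 array 2. With consecutive replicates averaged the median shift is -0.67 by construction, and its exact p of 0.333 is the smallest possible. Total RNA calls were 1168 without spt20 arrays 1 and 3, and 488 to 762 with 1 array left out.

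With the replicate block, relative calls were 1701, spike-scaled calls 3191 and total RNA calls 410. Same-numbered arrays deviated together at 0.278, 0.258, 0.226 and 0.043, so the numbers were not taken to pair the samples. The causes of these changes were not tested. Whether the arrays are repeats of 2 cultures limits every p-value.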
